A study of Mus musculus with 21 samples.

Results

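The genes described here are 37 genes known from macrophages and microglia, measured in cells sorted from the mouse main olfactory epithelium. They were taken from a written list of gene symbols, and all 37 were found among the 22786 genes present in both deposited tables (23587 and 22918 genes). The list was selected on TPM levels of these same libraries, with earlier results known, and which comparison chose each gene is not recorded. Its levels and differences are therefore given as a description. The members fall into 6 subsets: complement C1q (3 genes), lipid and lysosome (7), homeostatic receptors and markers (9), MHC class II (4), tissue macrophage (6) and leukocyte signalling (8).

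The study expressed HyperTRIBE, an RNA-editing domain fused to RNA-binding proteins to mark their target RNAs, either alone (HT) or joined to the RNA-binding protein Mex3a (MexHT). In the first table the mice carried gg8tTA and OMPtTA, which drive tetO constructs in immature and in mature olfactory sensory neurons (OSN). Their genotypes were gg8tTA; OMPtTA; tetO-Mex3a_HyperTRIBE_mCherry (MexHT) or gg8tTA; OMPtTA; tetO-HyperTRIBE_mCherry (HT). It holds 6 MexHT OSN, 3 HT OSN, 5 MexHT negative and 3 HT negative libraries, where OSN are sorted immature and mature OSN and negative are sorted mCherry- cells. In the second table the genotype was gg8tTA; tetO-Mex3a_HyperTRIBE_mCherry, with 2 libraries of sorted immature OSN and 2 of mCherry- cells (gg8 MexHT). All groups described here thus carried the editing domain. The library names give 1 date for each table, so driver and date cannot be told apart. Per the labels the OSN and negative libraries with the same number came from 1 mouse, which gives 10 mice with both fractions, and MexHT OSN replicate 6 has no negative partner. Neither age nor strain is given in the labels used here.

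Macrophages are phagocytes that live in nearly every tissue, and microglia are those of the brain. They depend on the receptor Csf1r, engulf dying cells and debris, and digest them in lysosomes rich in cathepsins. In the olfactory epithelium, where neurons die and are replaced throughout life, macrophages clear neuronal remains. C1q starts the classical complement pathway by binding surfaces to be removed. Trem2 and its adaptor Tyrobp sense lipids, Apoe carries lipids, and MHC class II molecules show peptides to T cells. P2ry12, Tmem119, Fcrls and Siglech are widely used as markers of resting microglia, but none of them is by itself proof of that cell.

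Values are TPM (transcript abundance corrected for transcript length and scaled to a fixed library total). The recovered depth was 7334696 to 15058170 counts per library. Mex3a, carried by the MexHT construct, was at 328 to 1271 TPM in MexHT OSN and 24.0 to 61.5 TPM in HT OSN. Marker levels bear on the labels: the 7 mature OSN markers summed to 1702 to 5351 TPM in MexHT OSN, 7227 to 11511 TPM in HT OSN and 192 to 527 TPM in gg8 MexHT OSN. They also summed to 345 to 5861 TPM in MexHT negative, 4346 to 9154 TPM in HT negative and 6420 to 11610.3 TPM in gg8 MexHT negative libraries, so the negative cells also held neuronal RNA. Xist, the RNA of the inactive X chromosome, was at 58.4 to 139.8 TPM in all 6 MexHT OSN libraries but at 0.126, 60.3 and 0.140 TPM in HT OSN replicates 1 to 3. HT OSN replicate 3 and MexHT negative replicate 1 stood apart from their groups for many of the 37 genes, and counts of calls are given with and without them. In sorted bulk RNA, fewer macrophages in a sort and less RNA of a gene per macrophage cannot be told apart.

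In the sorted neurons, all 37 were lower in MexHT than in HT libraries, whereas in the negative cells none differed between the constructs by the test. Between fractions the genes divided. C1qb, C1qc, Trem2, Apoe, P2ry12, Fcrls and Ms4a7 were called higher in OSN than in negative libraries of both constructs. Of these, only Fcrls kept both calls in every alternative fit. MHC class II, Ptprc, Cd52, Lyz2 and Tmem119 were called lower in OSN in MexHT mice.

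Differences were fitted across all genes of a table with limma on log2(TPM + 1), keeping genes whose mean reached 1 TPM, and a gene is called when its adjusted p is under 0.05. For MexHT OSN against HT OSN, 37 of 37 members were called lower (median log2 fold change -2.21, range -2.90 for Fcrls to -1.17 for P2ry13), beside 36.8% of all 16067 genes called (19.9% higher and 16.8% lower), with an all-gene median of 0.03. For MexHT negative against HT negative, 0 of 37 were called by limma (median 0.24), as were 0% of 16860 genes. Limma-voom on recovered counts also called 0. Before adjustment, 6 of the 37 members and 3465 of the 16860 genes had a limma p under 0.05. For MexHT OSN against MexHT negative, 8 members were called higher and 21 lower (median -0.76), beside 63.4% of 16522 genes called (35.8% higher and 27.6% lower). For HT OSN against HT negative, 16 members were called higher and 0 lower (median 1.34), beside 11.3% of 17027 genes called (2.18% higher and 9.11% lower). In the gg8 table, where 36 members were tested because Cd163 fell under the minimum, 1 was called higher and 9 lower (median 0.11), beside 8.32% of 16490 genes called (1.12% higher and 7.2% lower). The gg8 fractions did not overlap for 31 members, 15 higher and 16 lower in OSN, and for 63.6% of all genes. Since the members were chosen with such results known, nothing is read from these shares.

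**Figure D1:**
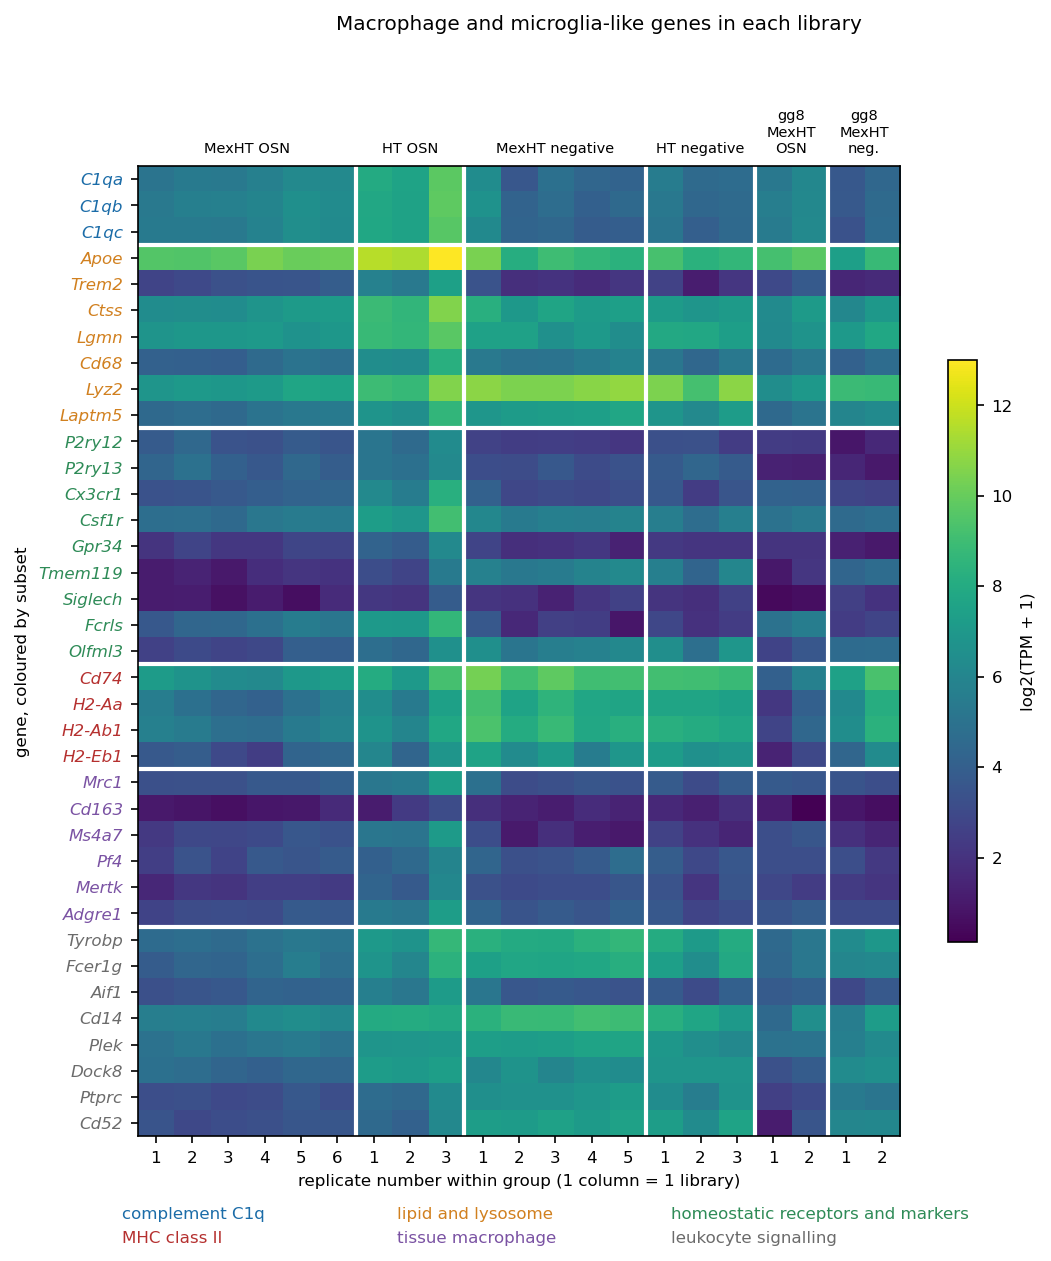
Each cell of the map is the log2(TPM + 1) of 1 of the 37 genes (vertical axis, coloured by subset) in 1 of 21 libraries (horizontal axis, by group and replicate number); the gg8 libraries come from a table scaled separately. HT OSN replicate 3 is among the brightest columns, and the 4 class II genes are brighter in the negative than in the OSN libraries of MexHT mice.

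C1q is built from 3 chains, encoded by C1qa, C1qb and C1qc side by side on chromosome 4. In mouse build GRCm38.p6 (mm10), C1qb lies at chr4:136880126-136886200, C1qc at chr4:136889801-136892936 and C1qa at chr4:136895916-136898844, a stretch of 18719 bases. The 250 bases before a RefSeq transcript start of C1qb and C1qc, which for C1qc lies just inside the outer end of the gene, are shown because these neighbours had the same call in every comparison. Capitals mark AGGAAGT, a core bound by ETS factors such as the macrophage regulator PU.1, read here as its reverse complement.
C1qb promoter, chr4:136886201-136886450, minus strand: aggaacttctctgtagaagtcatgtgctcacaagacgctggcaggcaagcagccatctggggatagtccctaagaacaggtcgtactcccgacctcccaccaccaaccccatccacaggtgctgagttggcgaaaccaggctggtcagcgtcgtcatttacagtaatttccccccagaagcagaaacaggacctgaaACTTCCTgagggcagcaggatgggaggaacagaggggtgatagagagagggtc
C1qc promoter, chr4:136892915-136893164, minus strand: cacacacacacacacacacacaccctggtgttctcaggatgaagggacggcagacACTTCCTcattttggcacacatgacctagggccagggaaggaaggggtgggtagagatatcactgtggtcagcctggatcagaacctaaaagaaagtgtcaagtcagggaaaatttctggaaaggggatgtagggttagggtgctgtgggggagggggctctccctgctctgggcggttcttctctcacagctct
AGGAAGT was searched on both strands of windows of the 250 bases before each RefSeq start. It was found in windows of 8 of the 27 members that had an entry: C1qb, C1qc, Fcrls, Lyz2, Mrc1, P2ry12, Pf4 and Ptprc. By window that was 9 of 32, and 7.69% of all 32851 windows held it. A match describes these letters and is no evidence of binding.

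C1qa was at 255, 191 and 850.2 TPM in HT OSN replicates 1 to 3 and at 32.7 to 72.1 TPM (median 46.2) over the 6 MexHT OSN libraries. In negative cells it was at 83.8, 11.3, 28.1, 19.5 and 17.4 TPM in MexHT replicates 1 to 5 and 45.1, 23.2 and 24.6 TPM in HT replicates 1 to 3. All 3 HT OSN libraries lay above all others. MexHT negative replicate 1 was above the MexHT OSN range, and HT negative replicate 1 was within it. C1qb stood at 229, 189 and 889 TPM in HT OSN and 38.99 to 90.6 TPM (median 55.8) in MexHT OSN, against 101, 17.4, 25.6, 15.6 and 21.9 TPM in MexHT negative and 37.8, 20.2 and 23.01 TPM in HT negative. C1qc was at 223, 185 and 805 TPM in HT OSN and 39.7 to 87.9 TPM (median 49.5) in MexHT OSN, against 73.5, 18.4, 20.3, 13.5 and 14.7 TPM in MexHT negative and 33.7, 15.1 and 22.4 TPM in HT negative. The chains kept nearly equal levels within a library: the highest exceeded the lowest by 1.03 to 1.62 times over the 21 libraries.

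For C1qa, C1qb and C1qc the log2 fold changes of MexHT OSN against HT OSN were -2.79 ± 0.43, -2.49 ± 0.44 and -2.53 ± 0.43 (± SE), with no overlap of libraries. HT OSN exceeded HT negative by 3.51 ± 0.56, 3.65 ± 0.58 and 3.78 ± 0.57 on the log2 scale, again without overlap. The values for MexHT OSN against MexHT negative were 0.96 ± 0.41, 1.08 ± 0.41 and 1.26 ± 0.39, where C1qb and C1qc were called and C1qa was not. Without MexHT negative replicate 1 all 3 were called, at 1.39, 1.54 and 1.67, and with the mouse as a block C1qb was not called. MexHT mouse 1 went against the other 9 mice, with all 3 chains lower in OSN than in negative cells. In the gg8 table C1qa was at 38.4 and 66.3 TPM in OSN and 11.9 and 20.8 TPM in negative libraries, and the log2 differences of the 3 chains, 1.62 to 1.86, were not called.

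Apoe was the most abundant member in every OSN library and made up 40.3% to 55.0% of the summed TPM of the 37 genes there, against 5.36% to 16.5% in the negative libraries. Its level was 3136, 2709 and 8201 TPM in HT OSN and 729.7 to 1359 TPM (median 954) in MexHT OSN, with 1377, 282, 503, 395 and 326 TPM in MexHT negative and 609.9, 330.4 and 399 TPM in HT negative libraries. HT OSN lay above every other library. The log2 fold change was -2.10 ± 0.34 for MexHT OSN against HT OSN, 3.25 ± 0.46 for OSN against negative in HT mice and 1.00 ± 0.35 in MexHT mice, where MexHT negative replicate 1 overlapped the OSN range and the value was 1.38 without it. Without MexHT negative replicate 2 the call in MexHT mice was lost (limma adjusted p = 0.0646). Apoe is also made by glia and other cells.

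Lyz2, the lysozyme of macrophages and neutrophils, ran the other way between fractions. It was at 498, 428 and 1521 TPM in HT OSN and 113 to 205 TPM (median 138) in MexHT OSN, but at 1719, 1425, 1423, 1697 and 1907 TPM in MexHT negative and 1419, 595 and 1756 TPM in HT negative libraries. Within each of the 10 mice it was lower in OSN than in negative cells. Its log2 fold change was -2.21 ± 0.36 for MexHT OSN against HT OSN and -3.45 ± 0.16 for OSN against negative in MexHT mice, without overlap in either. In HT mice it was -0.73 ± 0.59, not called, with overlapping libraries. The ratio of Lyz2 to Apoe was 0.103 to 0.189 over the 11 OSN libraries and 1.01 to 5.84 over the 10 negative libraries. Neutrophil markers moved with this gene: their sum was 166 to 492 TPM in OSN and 6675 to 16850.0 TPM in negative libraries of the first table, and their part in the Lyz2 difference was not tested.

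Trem2, the lipid receptor, was at 54.7, 39.97 and 173 TPM in HT OSN and 5.80 to 14.1 TPM (median 9.47) in MexHT OSN, against 9.76, 2.61, 3.07, 2.24 and 3.52 TPM in MexHT negative and 5.26, 1.22 and 3.52 TPM in HT negative libraries. HT OSN was far above the rest, and in MexHT mice the 2 fractions overlapped through negative replicate 1. The log2 fold changes were -2.88 ± 0.41 for MexHT OSN against HT OSN, 4.21 ± 0.61 for OSN against negative in HT mice and 1.09 ± 0.31 in MexHT mice. The lysosomal protease Ctss changed sides with the construct: the log2 fold change of OSN against negative was 2.30 ± 0.48 in HT mice and -0.76 ± 0.23 in MexHT mice, both called. Cd68, a lysosomal membrane protein, was called lower in MexHT OSN than in MexHT negative cells (-0.90 ± 0.22) and was not called in HT mice (2.04 ± 0.53). Lgmn, the protease legumain, was called higher in HT OSN than in HT negative cells (1.34 ± 0.30) but not called in MexHT mice (-0.11 ± 0.19). Laptm5, a lysosomal protein of blood cells, was called lower in MexHT OSN than in MexHT negative cells (-2.38 ± 0.19). All 7 members of this subset were called lower in MexHT OSN than in HT OSN, with a median log2 fold change of -2.36.

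The homeostatic genes had the widest range between fractions of the 6 subsets. Csf1r, the receptor for the macrophage growth factors Csf1 and Il34, was at 154, 119.5 and 547 TPM in HT OSN and 21.997 to 44.2 TPM (median 32.03) in MexHT OSN. In negative cells it was at 67.001, 40.4, 49.6, 47.9 and 58.3 TPM in MexHT and 48.5, 25.05 and 50.5 TPM in HT libraries. HT OSN was above every other library, while the ranges of MexHT OSN and both negative groups overlapped. Csf1r was called in both fraction comparisons with opposite signs, 2.42 ± 0.58 in HT mice and -0.68 ± 0.20 in MexHT mice, but leaving out any HT library other than OSN replicate 3 ended the call in HT mice.

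Fcrls, an Fc receptor-like protein of microglia, was at 137, 128 and 400.1 TPM in HT OSN and 11.7 to 44.7 TPM (median 24.9) in MexHT OSN. In negative cells it was at 11.96, 2.05, 4.98, 4.45 and 0.845 TPM in MexHT and 6.22, 2.94 and 4.32 TPM in HT libraries. MexHT negative replicate 1 was the only negative library that reached the lowest MexHT OSN value. Fcrls had the largest OSN excess of the 37 genes, 5.18 ± 0.46 in HT mice and 2.44 ± 0.45 in MexHT mice, and in the gg8 table it was the 1 member called higher (2.70 ± 0.48, with 30.3 and 47.4 TPM in OSN and 4.28 and 5.85 TPM in negative libraries).

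P2ry12, a nucleotide receptor through which microglia sense injured cells, was at 34.05, 22.997 and 79.3 TPM in HT OSN and 9.07 to 20.996 TPM (median 11.7) in MexHT OSN, against 5.40, 4.43, 4.65, 4.40 and 3.45 TPM in MexHT negative and 8.73, 8.95 and 4.25 TPM in HT negative libraries. It was the only member higher in OSN than in negative cells in all 10 mice. P2ry13, a related receptor encoded beside it on chromosome 3, was at 34.1, 28.5 and 72.2 TPM in HT OSN and 11.7 to 29.9 TPM (median 17.5) in MexHT OSN, against 7.95, 7.66, 11.8, 7.35 and 9.19 TPM in MexHT negative and 12.8, 19.99 and 13.2 TPM in HT negative libraries. MexHT OSN replicate 2 overlapped HT OSN for P2ry13, which had the smallest fold change between the constructs in OSN (-1.17 ± 0.33, against -1.62 ± 0.36 for P2ry12). OSN exceeded negative cells in MexHT mice by 1.29 ± 0.21 for P2ry12 and 0.96 ± 0.22 for P2ry13, both called.

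Tmem119 and Olfml3, both also expressed by bone and connective tissue cells, were lower in OSN than in negative cells in all 10 mice. Tmem119 had the largest deficit of the list in MexHT mice (-4.15 ± 0.24) and was called in the gg8 table too (-2.95 ± 0.59), and Olfml3 differed by -2.63 ± 0.31 in MexHT mice. The 6 osteoblast markers summed to 61.1 to 209 TPM in OSN and 5214 to 15772 TPM in negative libraries of the first table, and their part in these differences was not tested. The chemokine receptor Cx3cr1 and the lysophospholipid receptor Gpr34 were called higher in OSN than in negative cells in HT mice (3.46 ± 0.70 and 2.58 ± 0.58) and were not called in MexHT mice (0.60 ± 0.25 and 0.44 ± 0.26). Siglech, a sialic acid-binding receptor, was lower in OSN in all MexHT and gg8 mice and higher in OSN in all 3 HT mice, at levels of 0.353 to 13.7 TPM.

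MHC class II presents peptides from engulfed material. H2-Aa encodes an alpha chain, H2-Ab1 and H2-Eb1 encode beta chains, and Cd74 is the invariant chain that guides them. The classical class II promoter carries an X box and a Y box. The 250 bases before the RefSeq start of H2-Aa and H2-Eb1 (chromosome 17, GRCm38.p6) are shown since both genes were called lower in OSN than in negative cells of MexHT mice. Capitals mark ATTGG, the Y box core, and AACNGATG, an X box sequence, each on either strand.
H2-Aa promoter, chr17:34287824-34288073, minus strand: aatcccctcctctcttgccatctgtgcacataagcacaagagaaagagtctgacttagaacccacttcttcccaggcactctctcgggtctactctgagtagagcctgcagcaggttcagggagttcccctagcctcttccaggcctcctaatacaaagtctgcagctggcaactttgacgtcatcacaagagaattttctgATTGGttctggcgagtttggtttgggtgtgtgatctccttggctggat
H2-Eb1 promoter, chr17:34305617-34305866, plus strand: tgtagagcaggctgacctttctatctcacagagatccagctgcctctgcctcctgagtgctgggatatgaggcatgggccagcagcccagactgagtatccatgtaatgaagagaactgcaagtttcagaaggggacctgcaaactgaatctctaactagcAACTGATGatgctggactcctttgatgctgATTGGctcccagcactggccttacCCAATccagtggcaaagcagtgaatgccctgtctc
H2-Eb1 held ATTGG on both strands and AACNGATG once, and H2-Aa held ATTGG once. Over the same RefSeq windows, ATTGG was in 33.8% of all windows and in 12 of the 27 matched members, and AACNGATG was in 1.98% of all windows and in 2 members, Ctss and H2-Eb1.

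Cd74 was at 259, 131 and 582 TPM in HT OSN and 70.7 to 158 TPM (median 117) in MexHT OSN, but at 1265, 532, 905, 538 and 550.3 TPM in MexHT negative and 558, 535 and 464 TPM in HT negative libraries. H2-Ab1 was at 106, 62.95 and 219.5 TPM in HT OSN and 25.5 to 57.3 TPM (median 42.98) in MexHT OSN, against 658, 261, 449, 229.6 and 302 TPM in MexHT negative and 302, 262 and 211 TPM in HT negative libraries. Every MexHT OSN library was below every negative library. HT OSN replicate 3 was above all 3 HT negative libraries for Cd74 and above the lowest of them for H2-Ab1. In MexHT mice the 4 class II genes were called lower in OSN than in negative cells, from -3.20 for H2-Aa to -2.69 for Cd74. In HT mice they differed by -1.17 to -0.93 and none was called. Without HT OSN replicate 3, Cd74, H2-Aa and H2-Ab1 were called lower there too.

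Class II genes had the smallest difference between the constructs in OSN of the 6 subsets, with a median of -1.50. Cd74 changed by -1.30 ± 0.41, H2-Aa by -1.50 ± 0.45, H2-Ab1 by -1.50 ± 0.37 and H2-Eb1 by -2.08 ± 0.55, and HT OSN replicate 2 lay within the MexHT OSN range for all but H2-Ab1. Without HT OSN replicate 3, Cd74, H2-Aa and H2-Eb1 were no longer called. In the gg8 table Cd74 was at 15.8 and 51.7 TPM in OSN and 182 and 628 TPM in negative libraries, and H2-Ab1 at 5.92 and 20.5 and 85.6 and 331 TPM. The gg8 libraries did not overlap for either gene, and Cd74, H2-Aa and H2-Ab1 were called lower in OSN (-3.51, -4.05 and -3.80). Leaving out gg8 OSN replicate 2 or either gg8 negative library ended these and all other member calls of that table, Fcrls included.

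Mrc1, the mannose receptor of tissue macrophages, was at 36.8, 41.4 and 159 TPM in HT OSN and 8.58 to 15.8 TPM (median 10.6) in MexHT OSN, against 28.9, 7.63, 8.78, 11.1 and 9.49 TPM in MexHT negative and 13.3, 7.29 and 13.6 TPM in HT negative libraries. Adgre1, which encodes the macrophage antigen F4/80, was at 41.2, 35.2 and 154 TPM in HT OSN and 5.68 to 12.9 TPM (median 7.84) in MexHT OSN, against 18.04, 9.99, 13.2, 10.3 and 15.6 TPM in MexHT negative and 11.8, 5.84 and 7.95 TPM in HT negative libraries. For both genes HT OSN lay above all other libraries, whose ranges overlapped. Between the constructs in OSN they differed by -2.42 ± 0.41 and -2.69 ± 0.42. Between the fractions they were called higher in OSN in HT mice (2.40 ± 0.56 and 2.75 ± 0.56). In MexHT mice Mrc1 was not called (-0.09 ± 0.30), and Adgre1 was called lower in OSN (-0.55 ± 0.22), though not without MexHT negative replicate 1 (-0.45).

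Ms4a7, a membrane protein of tissue macrophages, had the same calls as C1qb and C1qc. It was at 34.9, 33.2 and 139 TPM in HT OSN and 3.88 to 11.2 TPM (median 6.83) in MexHT OSN, against 7.86, 1.11, 2.61, 1.33 and 0.981 TPM in MexHT negative and 5.26, 2.93 and 1.72 TPM in HT negative libraries. Replicate 1 of both negative groups reached the MexHT OSN range. OSN exceeded negative cells by 3.78 ± 0.59 in HT mice and 1.35 ± 0.38 in MexHT mice. Mertk, a receptor for dying cells, was called lower in OSN in MexHT mice (-1.04 ± 0.20) and not called in HT mice (1.70 ± 0.65). Pf4, a chemokine, and Cd163, the haemoglobin scavenger receptor, were called in neither fraction comparison, and Cd163 was low throughout, at up to 7.65 TPM.

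Tyrobp, the adaptor through which Trem2 signals, did not share the fraction pattern of Trem2. It was at 132, 107 and 410.3 TPM in HT OSN and 22.97 to 38.1 TPM (median 28.9) in MexHT OSN, but at 310.2, 251, 242, 325 and 397 TPM in MexHT negative and 262, 139 and 261 TPM in HT negative libraries. MexHT OSN was below all other libraries of the table, and HT OSN and HT negative overlapped. OSN differed from negative cells by -3.34 ± 0.16 in MexHT mice, called, and by -0.24 ± 0.52 in HT mice, not called. Fcer1g, a second adaptor, gave -3.17 ± 0.25 and -0.16 ± 0.63.

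Cd14, the co-receptor for bacterial lipopolysaccharide, was at 252, 265 and 239 TPM in HT OSN and 46.5 to 85.4 TPM (median 59.3) in MexHT OSN. In negative cells it was at 322, 467, 453, 552 and 492 TPM in MexHT and 308, 205 and 134 TPM in HT libraries. Unlike most members, Cd14 was nearly level over the HT OSN libraries. MexHT OSN libraries were below all others, by -2.04 ± 0.19 against HT OSN and -2.88 ± 0.18 against MexHT negative. Plek, a protein kinase C substrate of blood cells, and Dock8, an exchange factor for migrating leukocytes, were as level in HT OSN, at 112, 116 and 126 TPM and 149.6, 133 and 159 TPM, and differed between the constructs by -1.79 ± 0.13 and -2.74 ± 0.17. Dock8 was lower in OSN than in negative cells in all MexHT and gg8 mice and higher in OSN in all 3 HT mice. Ptprc, the leukocyte antigen CD45, and Cd52 were lower in OSN than in negative cells in all 10 mice, with -3.54 ± 0.16 and -3.98 ± 0.14 in MexHT mice. Aif1, which encodes Iba1, was called higher in OSN in HT mice (2.39 ± 0.53) and not called in MexHT mice (-0.06 ± 0.31).

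**Figure D2:**
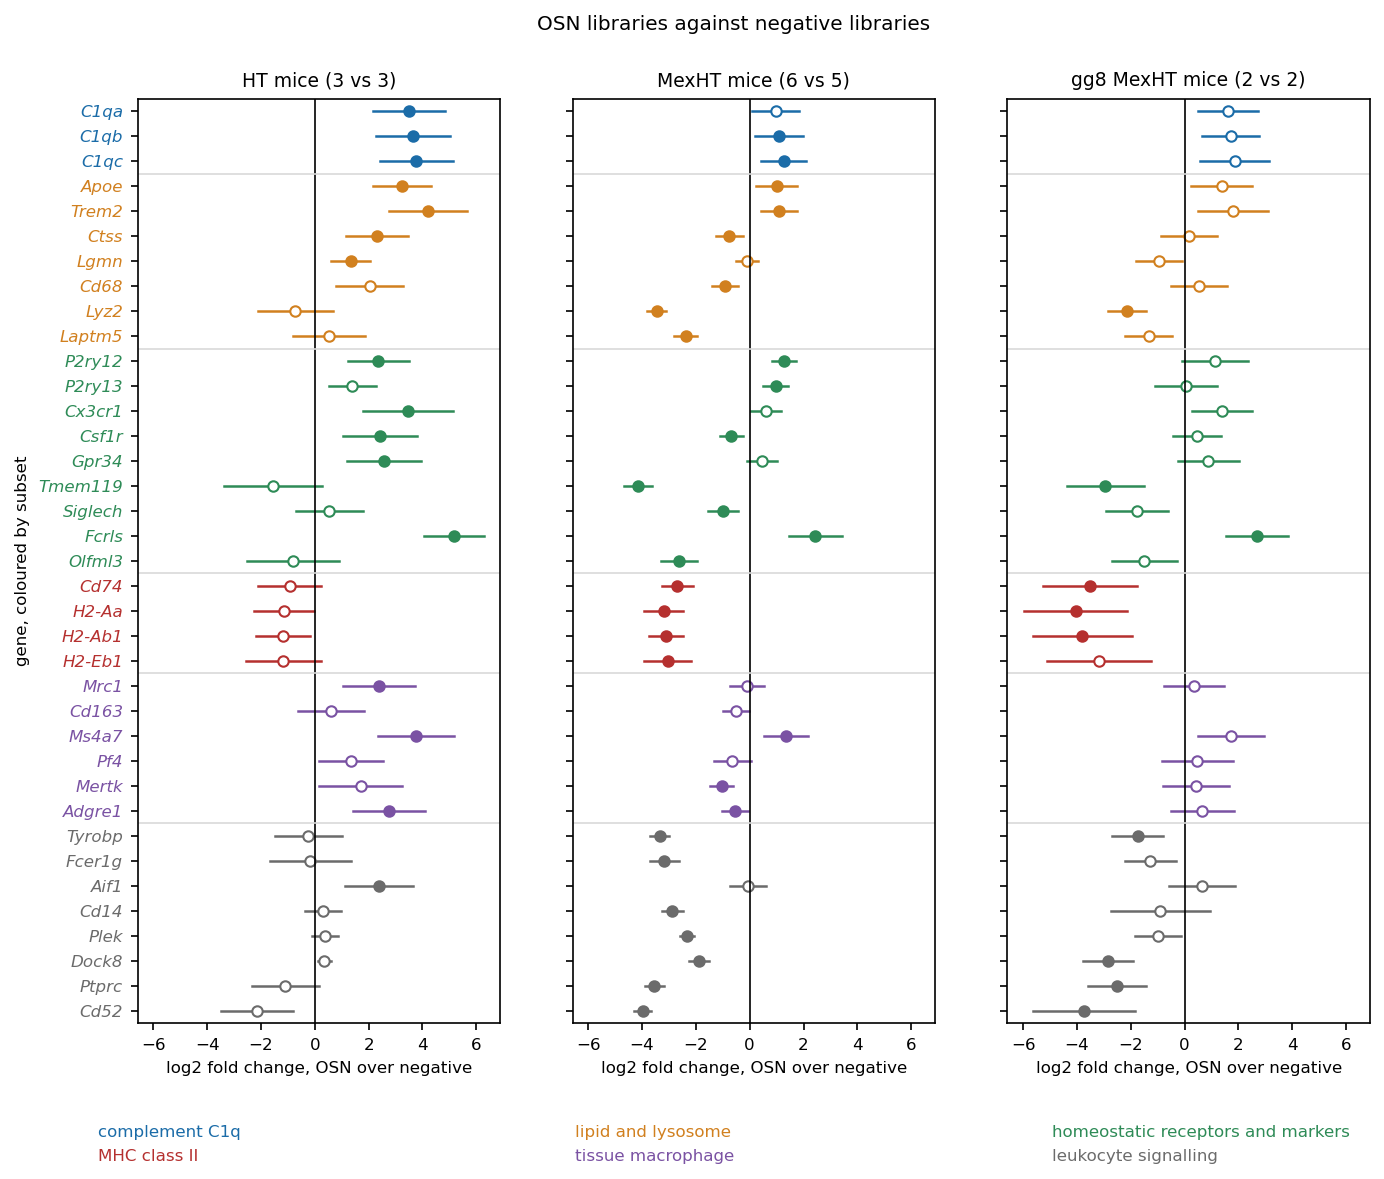
The horizontal axis is the log2 fold change of OSN over negative libraries in HT, MexHT and gg8 MexHT mice for each member (vertical axis, coloured by subset); lines are 95% confidence intervals from limma, and filled circles are genes called. C1q, Trem2, Apoe, Fcrls and Ms4a7 lie to the right of 0 in all panels, and the class II genes lie to the left.

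Read across the constructs, 7 members were called higher in OSN than in negative cells in both HT and MexHT mice: C1qb, C1qc, Apoe, Trem2, P2ry12, Fcrls and Ms4a7. In HT mice limma-voom did not call C1qb, C1qc, Trem2 or Ms4a7, and P2ry12 was not called without HT negative replicate 1. In MexHT mice Apoe was not called without negative replicate 2, nor C1qb without negative replicate 4. Ctss, Csf1r and Adgre1 were called higher in HT and lower in MexHT mice. A further 18 were called lower in MexHT and not called in HT mice, 6 were called higher in HT and not called in MexHT mice, P2ry13 was called in MexHT and not in HT mice, and Cd163 and Pf4 in neither. The libraries of the fractions did not overlap for 22 of 37 members in HT mice (41% of all genes) and for 17 in MexHT mice (43.1% of all genes). The HT count depended on the fit: 23 members (20 higher and 3 lower) were called with the mouse as a block, beside 29.2% of all genes. That fit added Cd68, Mertk, Dock8 and P2ry13 as higher and Cd52, Ptprc and Tmem119 as lower in OSN of HT mice. The count was 2 with limma-voom, beside 6.3% of all genes. It was 7 without HT OSN replicate 1, HT negative replicate 1 or HT negative replicate 3, beside 4.65%, 3.87% and 6.94% of all genes. Without HT OSN replicate 3 the count was 22, with 17 higher and 5 lower, beside 7.94% of all genes. Those called lower in that fit were Cd52, Ptprc, Cd74, H2-Aa and H2-Ab1. Without MexHT negative replicate 1, 11 members were called higher and 20 lower in MexHT mice, beside 62.3% of all genes.

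Ratios within a library do not depend on how the library was scaled, and several parted the fractions completely in both tables. These ratios were chosen after the values were seen. The summed class II genes over the summed C1q genes were 0.208 to 2.24 in the 11 OSN libraries and 10.4 to 25.1 in the 10 negative libraries. Ptprc over the C1q sum was 0.0308 to 0.0719 in OSN and 0.352 to 2.75 in negative libraries. Tyrobp over Trem2 was 2.30 to 4.05 and 31.8 to 145. Tmem119 over Fcrls was 0.0313 to 0.104 and 4.24 to 84.5. In each case the highest OSN library was below the lowest negative library, for HT, MexHT and gg8 MexHT mice alike. C1qa over C1qb, by contrast, overlapped, at 0.758 to 1.11 in OSN and 0.650 to 1.25 in negative libraries.

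**Figure D3:**
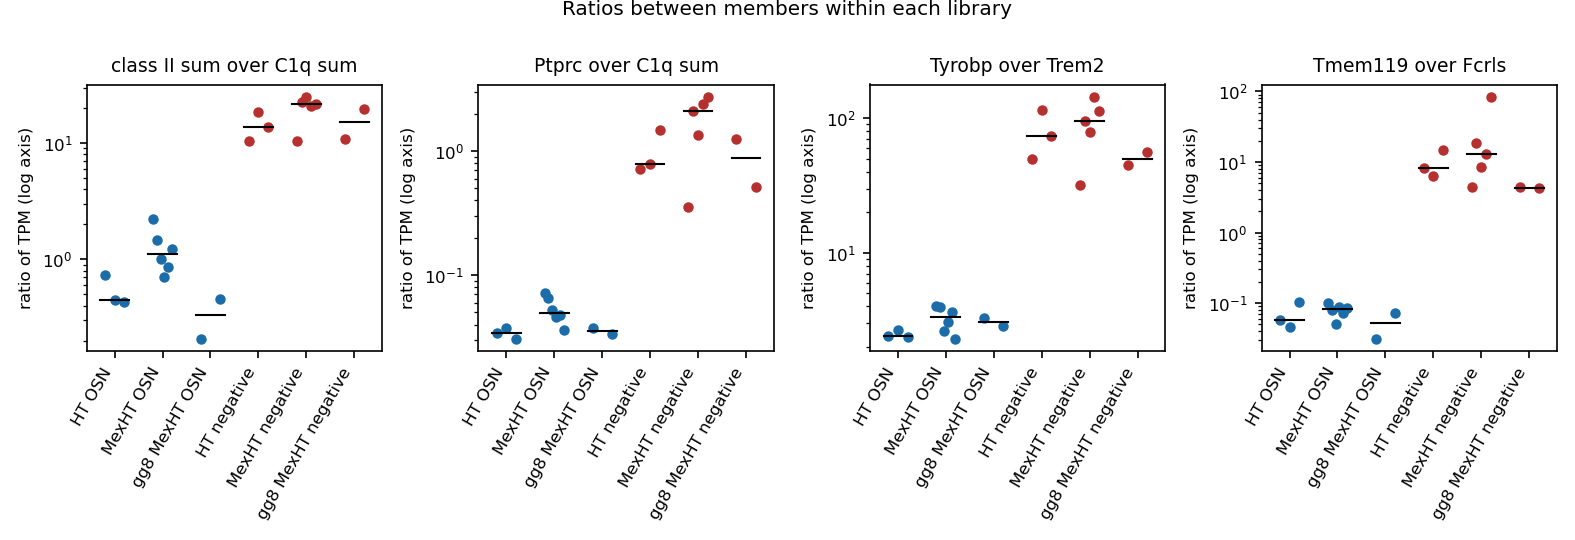
Each point is 1 library, the vertical axis is a ratio of TPM values on a log axis, the horizontal axis gives the group, and black bars are group medians. The OSN points (blue) of each panel lie below all negative points (red), with Tyrobp over Trem2 at 2.30 to 4.05 against 31.8 to 145.

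The MexHT and HT constructs both carry the editing domain and differ by Mex3a in the fusion. Among their OSN libraries, Xist was low only in HT replicates 1 and 3. The summed mature OSN markers were 1702 to 5351 TPM in MexHT OSN and 7227 to 11511 TPM in HT OSN. The part of either cannot be told apart from that of the construct. The 6 MexHT OSN libraries did not overlap the 3 HT OSN libraries for 32 of the 37 members, beside 38.4% of all genes, and the 5 that overlapped were P2ry13, Cd74, H2-Aa, H2-Eb1 and Cd163. The median log2 fold change was -2.53 for C1q, -2.47 for tissue macrophage genes, -2.36 for lipid and lysosome genes, -2.21 for homeostatic genes, -2.10 for leukocyte signalling genes and -1.50 for class II genes. Whether these subset medians differ from each other was not tested. HT OSN replicate 1 was above all 6 MexHT OSN libraries for 36 members and replicate 2 for 33, at a median of 3.81 and 3.22 times the MexHT OSN median of each gene. For replicate 3 this was 37 members, at a median of 13.5 times.

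The negative cells gave no such difference. Of the 37 log2 fold changes of MexHT negative against HT negative, 24 were above 0, and their median of 0.24 was -0.03 without MexHT negative replicate 1 and -0.13 without HT negative replicate 2. The groups did not overlap for 4 members, Cd14 and Plek higher and P2ry13 and Dock8 lower in MexHT, beside 8.71% of all genes. With same-numbered libraries as blocks 0 members were called as well. A missed threshold with 5 and 3 libraries does not show that the levels were equal.

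The test of whether construct changed the difference between fractions (the interaction over the 17 libraries of the first table) called 31 of 37 members, all on the lower side, with a median of -2.49, beside 12.4% of 16785 genes called (7.05% higher and 5.37% lower). The 6 not called were P2ry12, P2ry13, Siglech, Olfml3, H2-Eb1 and Cd163. The interaction was -3.30 ± 0.54 for Adgre1, -3.10 ± 0.54 for Csf1r, -3.10 ± 0.47 for Tyrobp, -2.55 ± 0.74 for C1qa and -1.75 ± 0.55 for Cd74. Called members numbered 21 without HT OSN replicate 3, 16 without HT negative replicate 2 and 21 with limma-voom, all on the lower side. Among all genes, 1195 of 16745 were called without HT negative replicate 2 and 1757 of 16781 with limma-voom. Without HT OSN replicate 3 the calls of C1qa, C1qb, C1qc, Apoe, Fcrls, Cd74 and H2-Ab1 were lost (adjusted p = 0.102 for C1qa and 0.131 for Cd74, limma), and 8.98% of all genes were called. Without MexHT negative replicate 1, 28 members were called, all on the lower side, beside 12.7% of all genes.

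Xist moved with the construct in both fractions. In negative libraries it was at 55.3 to 162.5 TPM in MexHT and at 0.0934, 76.5 and 0.135 TPM in HT replicates 1 to 3. The comparison of the negative groups was not fitted with Xist, so the parts of Xist level and construct cannot be told apart there either. With the Xist level as a covariate, a fit chosen after seeing the data, 4 members were called lower in MexHT OSN than in HT OSN (Cd14, Dock8, Lgmn and Plek), with a median of -1.54 over the 37, and 329 genes in all (2.05%). HT OSN replicate 2 was the 1 HT OSN library with Xist in the MexHT range. It was above all 6 MexHT OSN libraries for 33 members, the fewest of the 3 HT OSN libraries. Its median ratio to MexHT OSN, 3.22, was also the lowest of them. Xist level and construct cannot be told apart from 1 such library.

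**Figure D4:**
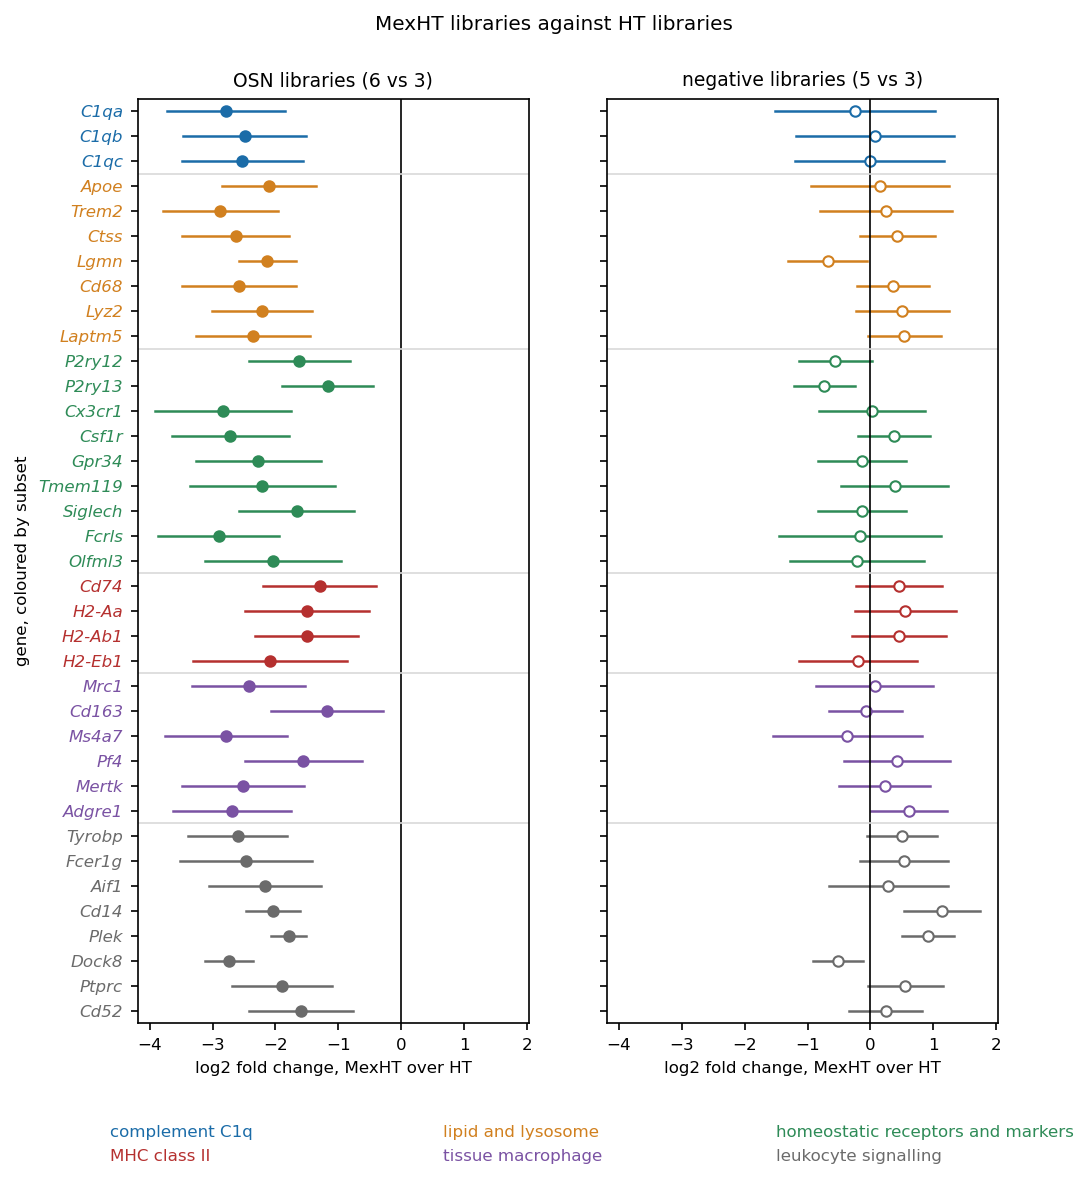
The horizontal axis is the log2 fold change of MexHT over HT libraries, in OSN (left) and in negative cells (right), for each member (vertical axis, coloured by subset); lines are 95% confidence intervals from limma, and filled circles are genes called. All 37 points lie left of 0 in OSN, and in negative cells none is called.

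HT OSN replicate 3 held 34 of the 37 members at 2 or more times the mean of replicates 1 and 2, with a median ratio of 3.49 and a maximum of 6.07 for Tmem119. The exceptions were Cd14 (0.925), Plek (1.10) and Dock8 (1.12). The marker sums of other cells in that library were not the highest of its group for neutrophil (321 TPM, against 492 and 209 in replicates 1 and 2), sustentacular (203 against 1071 and 254) or basal cells (10.1 against 14.9 and 15.04). The mature OSN sum was the lowest of its group, at 7227 TPM against 11511 and 11131, and its part was not tested. Without it, 31 of 37 members were called lower in MexHT OSN, with a median of -1.74, beside 31.4% of all genes called (14.6% lower).

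MexHT negative replicate 1 held 14 members at 2 or more times the median of the other 4 libraries. Ms4a7 was at 6.43 times, C1qb at 5.13, C1qa at 4.54, C1qc at 4.45, Apoe at 3.82 and Fcrls at 3.68 times. Leukocyte signalling genes were not raised there except Aif1, with Cd14 at 0.672 and Fcer1g, Dock8, Ptprc, Plek and Cd52 also under 1. Of the class II genes, Cd74 was at 2.32, H2-Ab1 at 2.34 and H2-Aa at 2.80 times. Its marker sums were also the highest of the group for sustentacular cells (1649 TPM, against 365 to 849), basal cells (1007 against 144 to 361), ensheathing glia (220.2 against 20.1 to 35.0) and fibroblasts and vessels (1172 against 502 to 760.3). They were the lowest of the group for neutrophils (12786 TPM), osteoblasts (7245), B cells (51.4), T and NK cells (25.7) and mast cells, basophils and eosinophils (424). Immature OSN markers were also lowest there (689 TPM, against 795 to 1325). Dendritic cell markers were highest there by a small margin (98.4 TPM, against 70.5 to 97.9). The part of these cells was not tested.

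**Figure D5:**
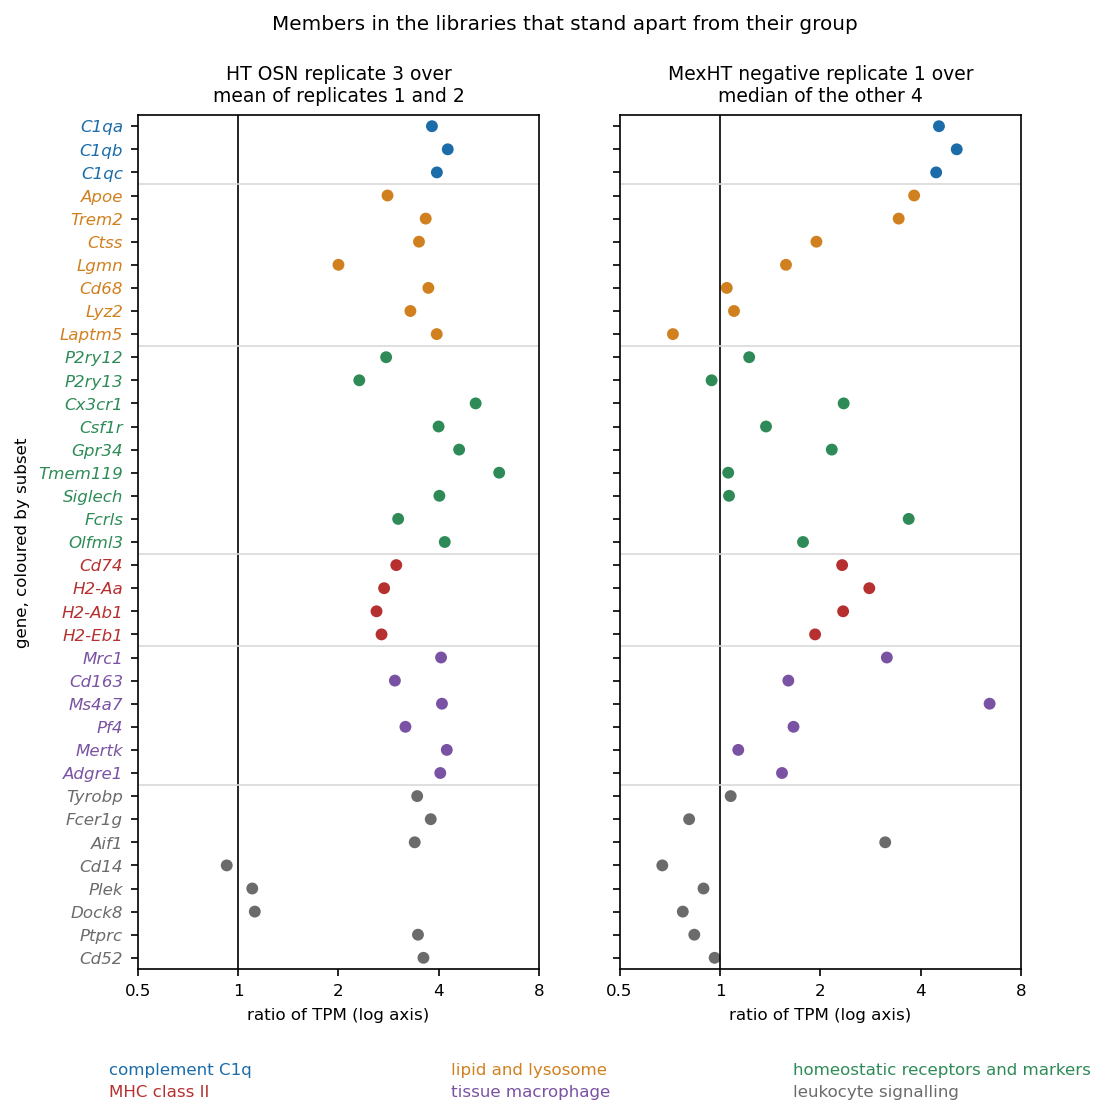
The horizontal axis is a ratio of TPM values on a log axis, for HT OSN replicate 3 over the mean of replicates 1 and 2 (left) and MexHT negative replicate 1 over the median of the other 4 (right), for each member (vertical axis, coloured by subset). On the left all genes but Cd14, Plek and Dock8 are at or beyond 2, and on the right C1q, Apoe, Fcrls and Ms4a7 are beyond 3 while most leukocyte genes are near or under 1.

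Genes of related pathways, from lists written by hand, were counted in the same fits. For all lists, the all-gene shares between MexHT and HT OSN were 16.8% called lower and 19.9% higher. For OSN against negative cells they were 27.6% lower and 35.8% higher in MexHT mice, and 9.11% lower and 2.18% higher in HT mice. The lists were chosen with earlier results known, so nothing is read from their counts. Of 26 other macrophage genes tested, 23 were called lower in MexHT OSN than in HT OSN and 0 higher (median -2.01). Stab1, a scavenger receptor (limma log2 fold change -2.83 ± 0.53, adjusted p = 0.00293), Cd33, a sialic acid-binding receptor (-2.72 ± 0.50, adjusted p = 0.00264), and Unc93b1, which carries Toll-like receptors to endosomes (-2.52 ± 0.39, adjusted p = 0.0012), were the furthest. Between the fractions of MexHT mice 23 of 26 were called lower in OSN and 1 higher, Stab1 (0.81 ± 0.31), while the integrins Itgam (-4.67 ± 0.23) and Itgb2 (-4.61 ± 0.20) and the oxidase subunit Ncf4 (-4.60 ± 0.21), all shared with neutrophils, were furthest down. In HT mice 2 of 27 were called higher in OSN (Stab1, 3.44 ± 0.70, and the prostaglandin synthase Hpgds, 2.27 ± 0.47) and 4 lower.

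Of 12 other complement genes tested, 7 were called lower in MexHT OSN than in HT OSN and 0 higher. They included the anaphylatoxin receptors C3ar1 (-2.74 ± 0.40) and C5ar1 (-1.88 ± 0.39). C3, the central complement protein, was called lower in OSN than in negative cells in all 3 kinds of mice (-5.24 ± 0.20 in MexHT, -4.11 ± 0.44 in HT and -4.06 ± 0.53 in gg8 MexHT), opposite in sign to C1q. C3ar1 was called higher in OSN in HT mice (3.10 ± 0.52), the 1 gene of this list called on the side of C1q.

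Of 24 other lysosome and lipid genes, 19 were called lower in MexHT OSN than in HT OSN and 0 higher (median -1.18), with the cathepsins Ctsh (-2.54 ± 0.45) and Ctsc (-2.44 ± 0.41) and the receptor Axl (-2.44 ± 0.40) furthest down. Spp1, osteopontin, was called lower in OSN than in negative cells in MexHT (-5.75 ± 0.21), HT (-4.76 ± 0.61) and gg8 MexHT mice (-5.03 ± 0.29). The lysosomal protease Ctsd (2.09 ± 0.46) was called higher in OSN in HT mice. Of 12 class II machinery genes, 7 were called lower in MexHT OSN than in HT OSN, among them the costimulators Cd86 (-2.17 ± 0.38) and Cd80 (-1.38 ± 0.28) and the class II transcription factor subunit Rfx5 (-1.29 ± 0.23), and 1 was called higher, its partner Rfxap (0.50 ± 0.10). Between the fractions of MexHT mice, 8 of 12 were called lower in OSN and 3 higher. The 3 higher were H2-DMb2 (1.26 ± 0.30), Rfxap (0.65 ± 0.10) and Rfxank (0.57 ± 0.22).

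Of 11 ligands and checkpoints of macrophages, 8 were called lower in MexHT OSN than in HT OSN. Sirpa, the receptor that reads the signal of Cd47 (-1.66 ± 0.41), Tgfb1 (-1.64 ± 0.29) and the phagocytic bridge Pros1 (-1.58 ± 0.36) were furthest down. Cd200, a neuronal surface protein that restrains macrophages, was the 1 called higher (1.87 ± 0.40, limma adjusted p = 0.00549).

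Markers of other cell types were counted in the same way. Of all genes, 36.8% were called between MexHT and HT OSN (16.8% lower), and 63.4% between the fractions of MexHT mice (27.6% lower). Of those tested between MexHT and HT OSN, 0 of 10 neutrophil, 5 B cell, 1 T and NK cell, 2 mast cell, basophil and eosinophil, 3 basal, 5 sustentacular, 4 osteoblast or 5 ensheathing glia markers were called by limma, while 1 of 3 dendritic cell markers and 1 of 4 fibroblast and vessel markers was called lower. Of the neuronal markers, 6 of 7 for mature OSN were called lower and 4 of 5 for immature OSN higher. Between the fractions of MexHT mice, 10 of 10 neutrophil, 6 of 6 osteoblast and 5 of 5 mast cell, basophil and eosinophil markers were called lower in OSN, with medians of -6.23, -5.15 and -5.29, beside -0.76 for the 37 genes. None of these lists had a marker at 0 in all libraries of a group.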

How the data were processed

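Per the labels, RNA of sorted cells was made into libraries with a stranded total RNA kit. FastQC, cutadapt, STAR, bedtools and mm10 are named per the submitters' processing notes. The counting program, annotation and use of strand are not given in the sources used here. The authors deposited TPM values in 2 tables that were scaled separately, so each was tested alone. Whole counts were recovered for 99.99% and 99.95% of genes (within 0.001 and 0.05 of a whole number), and gave the depth.

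Models were fitted across all genes of a comparison by limma (version 3.58.1, R version 4.3.3, trended empirical Bayes) on log2(TPM + 1), keeping genes whose mean reached 1 TPM, with Benjamini-Hochberg adjustment over all genes tested and a threshold of 0.05. On simulated data for MexHT OSN against HT OSN (15791 genes), 91% of genes changed by 2 on the log2 scale and 15% of those changed by 1 were called. The simulation used the same setting of spread for all genes and had no library that stood apart. It changed only genes above a minimum level. Its shares therefore do not give the chance of a call for the 37 members. The members and all lists were chosen with earlier results of these data known. Values by library are given for C1q genes, the 2 members of highest mean TPM in each other subset and members called against the majority. For MexHT OSN these are given as a range and median. Values of each gg8 library are given only for C1qa, Fcrls, Cd74 and H2-Ab1. Up to 3 genes per pathway list and direction are named by size of change, among those reaching 5 TPM. Some genes that this rule names are not reported here. Same-numbered OSN and negative libraries share a mouse per the labels, so those numbers pair. In deviations from the group mean, same-numbered OSN and negative libraries had r = 0.18, 0.28, -0.11, 0.09 and 0.42 in MexHT mice. In HT mice r was 0.17, 0.30 and 0.47. MexHT OSN replicates 1 and 3 and HT OSN replicate 1 correlated best with negative replicate 2, so the pairing rests on the labels. MexHT and HT negative libraries deviated together (r = 0.34, 0.42 and 0.23 for numbers 1 to 3). Genes with date-like symbols (27) were left out. Promoters are RefSeq sequences of GRCm38.p6, with 27 of 37 members matched. Alternatives were another pseudocount, filter, normalization or test, the replicate block and leaving out each library.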

Additional observations from a re-analysis of the deposited data

Results flagged for a closer look

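In MexHT negative replicate 1, 9 members lay further from the other 4 libraries than Dixon's test allows: C1qa at 83.8 TPM, C1qb at 101 TPM, C1qc at 73.5 TPM, Apoe at 1377 TPM, Trem2 at 9.76 TPM, Cx3cr1 at 16.2 TPM, Mrc1 at 28.9 TPM, Ms4a7 at 7.86 TPM and Aif1 at 35.4 TPM. In MexHT OSN the test singled out P2ry12 in replicate 2 (20.996 TPM), Cd163 in replicate 6 (2.21 TPM) and Ptprc in replicate 5 (11.9 TPM). These are 12 of 74 sets of values tested, of which chance alone marks about 5%, and genes of 1 library are not independent.

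The difference between fractions differed between the constructs in the limma interaction test for the C1q genes and the 2 most abundant members of each other subset. The log2 interaction was -2.55 for C1qa, -2.57 for C1qb, -2.52 for C1qc, -2.25 for Apoe and -2.72 for Lyz2. It was -3.10 for Csf1r, -2.73 for Fcrls, -1.75 for Cd74, -1.96 for H2-Ab1 and -2.49 for Mrc1. For Adgre1 it was -3.30, for Cd14 -3.18 and for Tyrobp -3.10. Another 18 members were called as well, and P2ry12 and P2ry13 were not. Without HT OSN replicate 3 the calls of C1qa, C1qb, C1qc, Apoe, Fcrls, Cd74 and H2-Ab1 were lost, and without HT negative replicate 2 those and that of Mrc1.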

How the results depend on the processing

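No called member changed sign under any alternative run. Over named genes and alternatives, leaving out the comparison of the negative groups, 929 of 1079 values kept direction and side of the threshold. Of the others, 138 lost the call, 8 gained one and 4 turned sign. Between the negative groups C1qa, C1qb, C1qc, Apoe, Fcrls and Mrc1, none of them called, also turned sign in some alternatives. With the Xist level as a covariate, chosen after seeing the data, 4 members and 329 genes in all were called between MexHT and HT OSN. Without a filter, 1 gene was called between the negative groups. For HT OSN against HT negative, limma-voom called 2 members and 1072 genes, and the replicate block, which pairs the fractions of a mouse, 23 members and 4967 genes. For gg8 MexHT, a pseudocount of 0.1 called 4 members and 646 genes, and a minimum of 5 TPM 9 members and 820 genes. There limma-voom called 5 members and 1248 genes, and the replicate block 13 members and 1529 genes. The block called 29 members and 4801 genes between MexHT and HT OSN, whose numbers share no mouse. For the interaction it called 33 members and 2603 genes, and for MexHT OSN against negative 30 members and 10738 genes. Between the negative groups it called 0 members and 0 genes. Other causes of these shifts were not tested.

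Leaving out 1 library at a time gave 31 to 37 members and 3745 to 6506 genes for MexHT against HT OSN, 0 members and 0 to 4 genes for the negative groups, and 26 to 31 members and 9623 to 10713 genes for MexHT OSN against negative. It gave 7 to 22 members and 660.0 to 4183 genes for HT OSN against negative, 0 to 9 members and 0 to 3703 genes for gg8 MexHT, and 16 to 32 members and 1195 to 2483 genes for the interaction. The gg8 MexHT count was 0 without OSN replicate 2, negative replicate 1 or negative replicate 2, where a lone library is assumed to vary like the others. Mrc1 in MexHT OSN against negative was 0.26 with quantile normalization, and -0.23 to 0.22 over left-out libraries, 0.22 being without MexHT negative replicate 1. Tyrobp in HT mice ran from -0.83 to 0.13, the latter without HT OSN replicate 2, and Cd14 in gg8 mice from -1.88 to 0.085, the latter without OSN replicate 1. The split of called genes, 371 higher and 1552 lower in HT OSN against negative, was 543 and 1232 with quantile normalization. For the interaction, 1184 and 902 became 714 and 1053 with median-of-ratios scaling. Cd163, Cd52 and Siglech were at or under 3 counts in 1 library each.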
